A study of Mus musculus with 93 samples.

Results

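The comparison described here is the late adult change of the wild-type neural retina, 8 libraries from mice aged 17 months against 8 from mice aged 9 months. These 16 libraries, chosen by tissue, genotype and age in the sample titles, belong to a series of 93 libraries in which retina and posterior eyecup of wild-type and Efemp1ki/ki mice were sequenced at 3, 9 and 17 months. All mice were female and untreated, and the wild-type groups carry no Efemp1 knock-in allele. Efemp1ki/ki is a homozygous knock-in at the gene of the matrix protein fibulin-3, and its 8 retinas at 9 and 8 at 17 months share no library with the wild-type comparison. The 8 wild-type retinas at 3 months place the late change beside the earlier one. Whether the libraries of a group came from different mice is not stated in the labels, and p-values therefore rest on the variation among libraries, part of which may be technical.

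The neural retina is a layered tissue in which rods and cones detect light, bipolar, horizontal and amacrine cells process the signal, and ganglion cells send it to the brain. Mueller glia span all layers, and resident microglia survey them. Ageing of the mouse retina is commonly followed through loss of neurons, glial reactivity, complement and microglial genes, and the daily and light-driven programmes of photoreceptors.

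The libraries held retinal transcripts in both groups. The summed level of 24 rod genes ran from 70221 to 81424 CPM (the counts of a gene relative to library size, scaled by the trimmed mean of M values) at 9 months and from 73348 to 91675 CPM at 17 months. The 10 lens genes tested summed to at most 3.30 CPM in every library at 17 months, while 1 library at 9 months reached 55.3 CPM around a median of 2.81 CPM. The 13 pigment epithelium genes summed to 176 to 446 CPM at 9 months and 209.7 to 512 CPM at 17 months, and 0 of them were called by edgeR in either direction (median log2 fold change 0.33). None of the 9 corneal and conjunctival genes was called either, with sums of 16.4 to 67.9 CPM and 14.8 to 52.8 CPM. Library totals were 11243187 to 26518183 estimated counts at 9 months and 12496378 to 37475492 at 17 months. In bulk tissue, fewer cells of a type and less RNA per cell cannot be told apart.

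Between 9 and 17 months, 3716 of 17240 genes passed edgeR's quasi-likelihood test at a Benjamini-Hochberg adjusted p under 0.05, which is 21.6% of the genes tested. Of these, 1764 (10.2%) were higher and 1952 (11.3%) lower at 17 months. The changes were small, with a median absolute log2 fold change of 0.24 among the called genes, and 86.6% of them moved by less than 0.5. Only 60 called genes moved by at least 1 on the log2 scale, 39 up and 21 down. The libraries of the age groups did not overlap at all for 206 genes, 1.19% of those tested.

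The GC trend of the libraries differed between the ages. It is computed from the same expression values, so a technical origin cannot be told from a biological one. The GC trend is the slope, within a library, of its genes' log2 difference from the mean retina on transcript GC content, per 10 points of GC. It averaged 0.0848 ± 0.165 at 17 months and -0.0852 ± 0.133 at 9 months (SD, n = 8 each; 2-sided exact permutation p = 0.039). At 9 months it ran from -0.316 to 0.0782 and at 17 months from -0.133 to 0.381, while the 3-month wild-type retinas lay between -0.0379 and 0.0741. Genes called higher had a median GC content of 54.5% and genes called lower 42.5%, against 49.5% over all genes. Across 17198 genes, which are not independent and share the same libraries, log2 fold change and GC content had a Spearman correlation of 0.514. With an offset per library that removes this trend, called the GC offset below, 2292 genes passed (13.3%), 931 higher (5.4%) and 1361 lower (7.89%). Of these, 1480 were also called in the same direction in the reported fit, which has no offset, and 595 of the 1480 were higher. The rest of the 2292 were not called in that direction without the offset. Calls of the reported fit outside the 1480 were not kept in their direction with it. Leaving out the libraries of extreme GC trend, wild-type 17-month libraries 1 and 2, wild-type 9-month library 7 and a 3-month Efemp1ki/ki retina, left 918 genes (5.28%), 444 higher (2.55%) and 474 lower (2.73%). Library 2 of the 17-month group also stood apart from its group over all expressed genes, together with that knock-in retina, and 2678 genes passed without the pair. In the same direction under the reported fit, with the GC offset and without the extreme libraries, 713 genes were called, 334 higher and 379 lower. Gene groups are given with their GC-offset counts, and the part of the GC trend in single results was otherwise not tested.

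**Figure D1:**
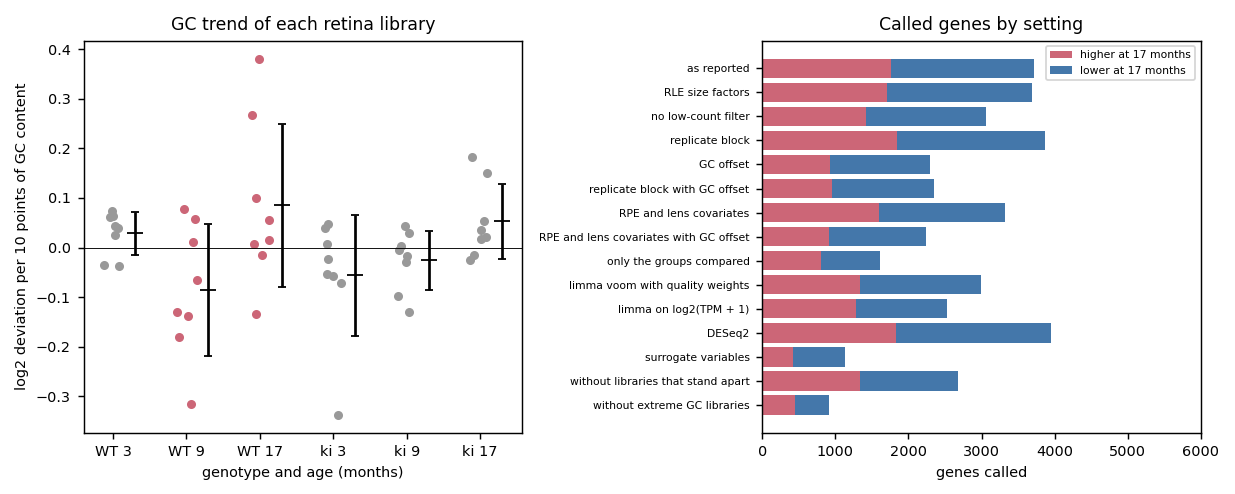
Left, the GC trend of each retina library (log2 deviation per 10 points of GC content) by genotype and age in months, with mean and SD; the 17-month wild-type libraries reach 0.381 and the 9-month ones go down to -0.316. Right, the number of genes called higher and lower at 17 months in wild-type retina under each setting drawn, from 918 to 3953 in all; fits that leave out 1 library are not drawn.

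The smallest p-values of the whole fit belonged to a non-coding locus on chromosome 15, which was singled out after its values were seen. In GRCm38 coordinates it holds the lincRNA genes Gm28876 (103096151 to 103102111) and Gm28265 (103102284 to 103104602), both on the minus strand, and Gm10830 (103102237 to 103105069), an antisense gene on the plus strand. Gm28265 measured 0.878 CPM in the lowest, 1.39 in the median and 2.02 in the highest library at 9 months, and 5.55, 7.59 and 8.70 CPM at 17 months. Every 17-month library thus lay above every 9-month one, with a log2 fold change of 2.32 ± 0.15 (SE) and adjusted p = 9.76e-17. Gm28876 rose from a median of 2.92 to 8.68 CPM (1.51 ± 0.11, adjusted p = 8.59e-15). Gm10830 rose from a median of 0.454 to 2.24 CPM (2.27 ± 0.22, adjusted p = 2.49e-10), again without overlap of the groups. At 3 months the medians of the locus were lower still, 0.417, 0.675 and 0.0809 CPM in the order Gm28265, Gm28876 and Gm10830. In Efemp1ki/ki retinas the changes from 9 to 17 months were 2.77 ± 0.16, 1.98 ± 0.11 and 2.53 ± 0.22. Gm28265 and Gm10830 overlap on opposite strands, and the strand setting of the counting is not given in the sources used here. Reads therefore cannot be assigned to 1 of these 2 genes with certainty. All 3 genes of the locus passed in each of the 30 alternative settings. RefSeq (GRCm38.p6) places a start of Gm28876 inside Gm28265 as the deposited annotation has it, so the split of reads between Gm28876 and Gm28265 is uncertain as well. The 250 bases before that start, chr15:103104399-103104648 on the minus strand, are shown because part of them is exon of Gm28265. The 204 bases that GENCODE M21 assigns to that exon are in capitals.
Gm28876: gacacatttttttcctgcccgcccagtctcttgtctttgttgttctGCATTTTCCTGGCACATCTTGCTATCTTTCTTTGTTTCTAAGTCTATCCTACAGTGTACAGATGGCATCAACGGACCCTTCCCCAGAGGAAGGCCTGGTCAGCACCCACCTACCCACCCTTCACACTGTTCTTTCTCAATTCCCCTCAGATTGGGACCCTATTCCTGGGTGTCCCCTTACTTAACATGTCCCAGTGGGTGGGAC

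Among named protein-coding genes, several rose steadily through adult life. Prok1 (ENSMUSG00000070368.9, chromosome 3, 107232797 to 107239707), which encodes the secreted peptide prokineticin 1, measured 8.51, 11.2 and 14.8 CPM in the lowest, median and highest library at 9 months and 17.4, 19.9 and 27.1 CPM at 17 months. The groups did not overlap, and the log2 fold change was 0.89 ± 0.10 (adjusted p = 1.11e-08). Its median at 3 months was 7.08 CPM. Hspa2, a testis-enriched heat shock protein gene, rose by 0.73 ± 0.09 from a median of 10.4 to 16.6 CPM, with all 17-month libraries above the highest 9-month one. Rdh1, a retinol dehydrogenase gene, had medians of 1.13, 3.47 and 7.69 CPM at 3, 9 and 17 months (17 against 9 months 1.12 ± 0.14, adjusted p = 4.58e-07). Its locus is shared with the readthrough gene Gm28046, so its reads are uncertain. Rnf43, encoding a membrane ubiquitin ligase that limits Wnt receptors, likewise went from 3.49 through 6.94 to 10.5 CPM (0.64 ± 0.10). Alpk2, an alpha-kinase gene, went from 13.1 through 18.4 to 26.6 CPM (0.53 ± 0.08). The sugar-phosphate transporter gene Slc37a2 rose by 0.74 ± 0.10, and 7 of 8 libraries at 17 months exceeded the highest at 9 months. Agtr1a, the gene of an angiotensin II receptor, rose from a median of 0.726 to 1.93 CPM (1.39 ± 0.23, adjusted p = 3.94e-05). The earlier change, 9 against 3 months, shares the 9-month libraries with these values, and it was called higher for Prok1 (0.64), Hspa2 (0.28), Rdh1 (1.57), Rnf43 (0.93), Alpk2 (0.52), Slc37a2 (0.45) and Agtr1a (1.05). In that comparison 30.7% of all genes were called.

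Other increases appeared between 9 and 17 months without a called change between 3 and 9 months. Grik3, a kainate-type glutamate receptor subunit gene, measured 13.8, 16 and 21.3 CPM at 9 months and 19.8, 23.1 and 28.4 CPM at 17 months (0.54 ± 0.08, adjusted p = 3.88e-06). Ptprn, encoding a membrane protein of dense-core vesicles, rose by 0.41 ± 0.06 (0.27 with the GC offset). The protocadherin genes Pcdhga9 (0.70 ± 0.09) and Pcdhgb5 (0.60 ± 0.09), which encode neuronal adhesion proteins, rose without overlap of the groups. Both belong to a cluster whose members share constant exons, so their reads are uncertain. Arid1b, a subunit gene of the BAF chromatin remodelling complex, and Fscn2, the photoreceptor actin-bundling gene, had been called lower at 9 than at 3 months and rose again. Arid1b had medians of 119, 96.7 and 119.9 CPM at 3, 9 and 17 months (17 against 9 months 0.32 ± 0.05), and Fscn2 132, 111 and 144 CPM (0.37 ± 0.06). All 12 of the genes named by p-value here and above passed in each of the 30 alternative settings. The largest fold among named genes was that of Prb1, a salivary proline-rich protein gene. Its log2 fold change was 3.76 ± 1.19, but its libraries ranged from 0 to 3.34 CPM at 9 months and from 0 to 28.1 CPM at 17 months, and without 17-month library 4 its adjusted p was 0.0555. Zxda, annotated in the deposited table as an unprocessed pseudogene, so that its reads are uncertain, rose by 1.99 ± 0.44 from a median of 1.01 to 5.15 CPM with overlapping groups.

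Among all genes tested, the decrease with the smallest p-value was in Spc25 (ENSMUSG00000005233.16, chromosome 2, 69193895 to 69206194), whose product is part of the NDC80 kinetochore complex. Its libraries held 66.5, 70.5 and 84.6 CPM at 9 months and 28.2, 44.9 and 47.6 CPM at 17 months. No 17-month library reached the lowest 9-month one (-0.78 ± 0.08, adjusted p = 4.31e-10), and at 3 months the median was 78.6 CPM. Gulp1, an engulfment adaptor gene, fell from a median of 16 to 7.63 CPM (-0.97 ± 0.13; -0.58 with the GC offset). The 3-month median of Gulp1 was 15.5 CPM, and 7 of 8 libraries at 17 months lay below the lowest at 9 months. Prdm1, the transcription factor gene that keeps developing photoreceptors from a bipolar fate, measured 11.6 to 14.9 CPM at 9 months and 7.55 to 11.1 CPM at 17 months (-0.56 ± 0.09, adjusted p = 1.98e-05). Its 3-month median was 17.8 CPM, and the earlier change was also called lower (-0.42). Low-level decreases by fold were Znf41-ps (-1.60 ± 0.41), a pseudogene with uncertain reads, Ogn (-1.09 ± 0.27), the osteoglycin gene of connective tissue, and the claudin-like gene Cldn34c1 (-1.05 ± 0.30), all with overlapping groups. Their adjusted p-values without the libraries of extreme GC trend were 0.13, 0.0863 and 0.167. The 8 fibroblast and scleral genes, of which Ogn is 1, summed to 76.1 to 134 CPM at 9 months and 69.0 to 86.7 CPM at 17 months.

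**Figure D2:**
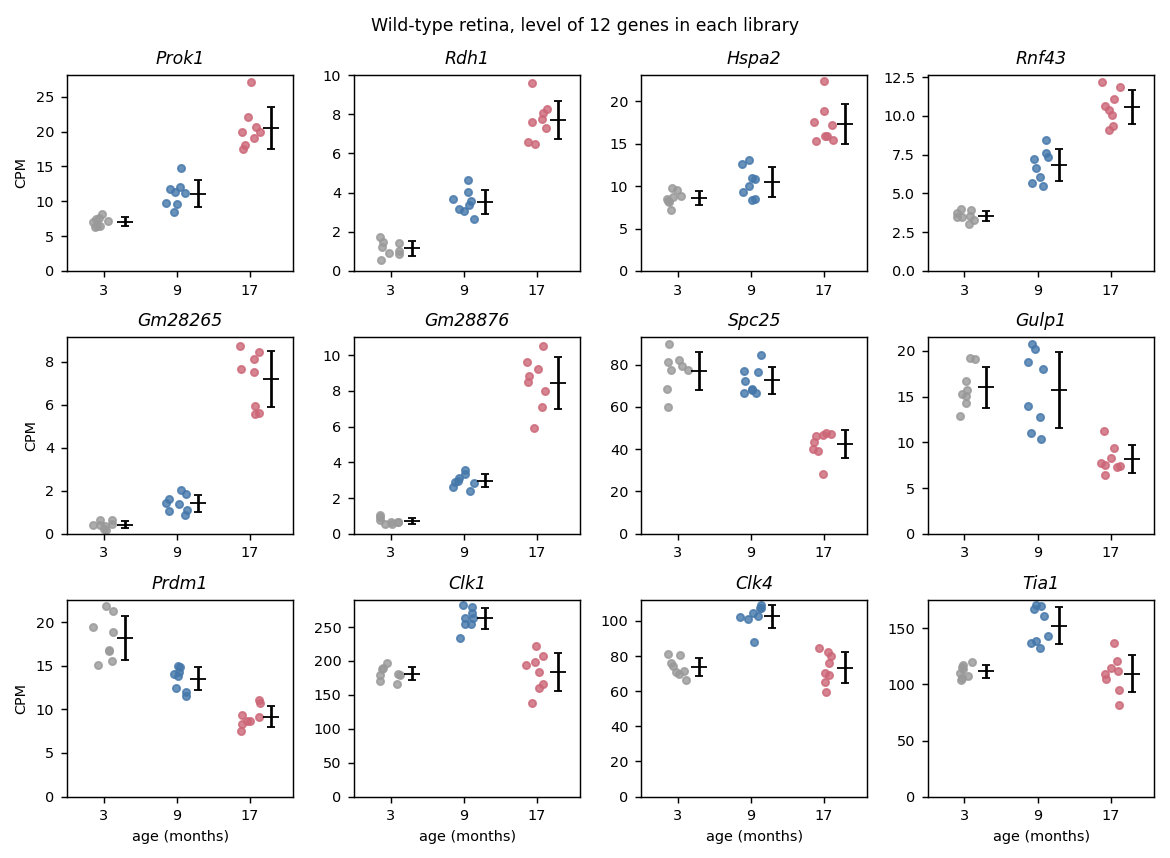
Level (CPM) of 12 genes in every wild-type retina library at 3, 9 and 17 months, with mean and SD beside the points (n = 8 per age). Prok1, Rdh1, Rnf43 and the chromosome 15 transcripts climb at each age, Spc25 and Gulp1 drop after 9 months, and Clk1, Clk4 and Tia1 are highest at 9 months.

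A second kind of decrease followed a rise between 3 and 9 months. The kinase genes Clk1 and Clk4 phosphorylate splicing factors, and both were highest at 9 months. Clk1 measured 233, 263 and 283 CPM at 9 months and 138, 189 and 222 CPM at 17 months, beside a 3-month median of 180.2 CPM. Its change from 9 to 17 months was -0.52 ± 0.06 and that from 3 to 17 months 0.02. Clk4 fell from a median of 104 to 73.1 CPM (-0.49 ± 0.06), with a 3-month median of 72.8 CPM, and for both kinases the age groups did not overlap. The RNA-binding protein genes Tia1 (-0.48 ± 0.07) and Tial1 (-0.40 ± 0.06), the zinc finger genes Zfp207 (-0.40 ± 0.05) and Zc3h11a (-0.30 ± 0.04), and Mtif2, a mitochondrial translation initiation factor gene (-0.36 ± 0.05), fell as well. So did Tprkb (-0.37 ± 0.06), which acts in transfer RNA modification, Qtrtd1 (-0.33 ± 0.05), a queuine transferase subunit gene, and the amylase gene Amy1 (-0.40 ± 0.06). Each of these genes had been called higher at 9 than at 3 months, and their log2 differences of 17 against 3 months lay between -0.13 and 0.31, in a comparison that called 9.89% of all genes higher and 7.92% lower. With the GC offset Amy1 had a log2 fold change of -0.21 (adjusted p = 0.076). The others passed with smaller changes, among them Clk4 (-0.24), Clk1 (-0.29), Tial1 (-0.25) and Zfp207 (-0.26). A test of the difference between the late change, over 8 months, and the earlier one, over 6 months, passed for 4966 genes (28.8%). By p-value it was led by Amy1 (-1.11), Clk4 (-0.97), Clk1 (-1.05), Ccnl1 (-0.63), a cyclin gene linked to splicing, Pnisr (-0.97), a serine/arginine-rich splicing-associated gene, and Taf4b (-1.14), a subunit gene of the general transcription factor TFIID. Both changes use the 9-month libraries. With the GC offset 3981 genes passed this test, and 3095 did without the libraries of extreme GC trend.

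Of 24 rod photoreceptor genes 9 were called higher and 0 lower by edgeR (median 0.11, against 0.01 over all genes), where 10.2% of all genes were called higher. With the GC offset 4 were, and without the libraries of extreme GC trend 1 was. Pde6a, a subunit of the rod phosphodiesterase of the light response cascade, measured 2255, 2348 and 2659.8 CPM at 9 months and 2626, 2844 and 3057 CPM at 17 months (0.25 ± 0.05, adjusted p = 0.000145). Of the 17-month libraries 6 exceeded every 9-month one. Nr2e3 (0.21 ± 0.05), a nuclear receptor of rod identity, Rcvrn (0.24 ± 0.06), encoding the calcium sensor recoverin, and the disc rim gene Prph2 (0.19 ± 0.05) rose too, with log2 fold changes of 0.14, 0.16 and 0.11 under the GC offset. At 3 months the rod genes summed to 81686 to 92483 CPM, and the summed level at 17 months overlapped that of both younger ages. Of the 24 genes 14 were called lower at 9 than at 3 months, where 15.5% of all genes were.

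Of 14 cone genes 0 were called higher by edgeR and 2 lower (median 0.04; with the GC offset 0 and 1), the latter near the 11.3% of all genes called lower. Arr3, encoding cone arrestin, measured 259, 316 and 359 CPM at 9 months and 216, 240.1 and 265 CPM at 17 months (-0.36 ± 0.08, adjusted p = 0.00218), near its 3-month median of 231 CPM. Cngb3, a subunit of the cone cyclic nucleotide-gated channel, also fell (-0.30 ± 0.09; with the GC offset, adjusted p = 0.254). The cone channel gene Cnga3 (0.19 ± 0.08) and the short-wave opsin gene Opn1sw (0.13 ± 0.06) did not pass. The difference between rod and cone genes was not itself tested.

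Photoreceptor structure and transcription showed changes in both directions, where 10.2% of all genes were called higher and 11.3% lower. Some list counts, such as 2 of 21 ribbon synapse genes lower, were near these shares. In the outer segment and cilium list 6 of 24 genes were higher and 5 lower (with the GC offset 4 and 2). Besides Fscn2, Rp1l1 (0.22 ± 0.04), an axoneme gene, and Cdhr1 (0.21 ± 0.05), a cadherin of nascent discs, rose without overlap of the age groups (with the GC offset, adjusted p = 0.0653 and 0.0149), whereas the ciliary BBSome gene Bbs5 fell (-0.25 ± 0.05; with the GC offset, adjusted p = 0.485). In the visual cycle list, which covers regeneration of the retinal chromophore, 3 of 17 genes rose (with the GC offset 1 higher and 1 lower). Rbp3, encoding the retinoid carrier between photoreceptors and pigment epithelium, measured 4119, 4576 and 4966 CPM at 9 months and 5157, 5654 and 6472 CPM at 17 months (0.31 ± 0.05, adjusted p = 8.02e-05). Its groups did not overlap, and the 3-month median was 5685 CPM. The disc flippase gene Abca4 (0.16 ± 0.04; with the GC offset, adjusted p = 0.109) and Rdh8, encoding a retinol dehydrogenase (0.15 ± 0.05), also rose. The call on Rdh8 ended with the GC offset and without 17-month library 1 (adjusted p = 0.0548) or 2 (adjusted p = 0.0576). Among 14 photoreceptor transcription factor genes (with the GC offset 1 higher and 2 lower) Nr2e3 rose and 3 fell, Prdm1, Rorb (-0.32 ± 0.07), an orphan nuclear receptor gene, and Neurod1 (-0.19 ± 0.06). The call on Rorb ended with the GC offset (adjusted p = 0.0872). The call on Neurod1 ended with the GC offset and without any 1 of 5 of the 16 libraries (adjusted p up to 0.0929). In the ribbon synapse list 7 of 21 genes rose and 2 fell (with the GC offset 5 and 2). Egflam, encoding the photoreceptor synapse matrix protein pikachurin, measured 208, 214 and 219 CPM at 9 months and 235, 246 and 272 CPM at 17 months (0.23 ± 0.04, adjusted p = 7.63e-05). The vesicular glutamate transporter gene Slc17a7 (0.23 ± 0.05), the synaptic adhesion gene Elfn1 (0.24 ± 0.06) and Dag1, encoding dystroglycan (0.14 ± 0.04; with the GC offset, adjusted p = 0.241), rose with it. Under the GC offset Slc17a7 (0.14) and Elfn1 (0.13) passed with smaller changes.

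Calls among inner retinal neurons went in both directions, with 21.6% of all genes called. Of 18 bipolar genes 3 rose and 2 fell, and with the GC offset 2 and 4. Isl1, a homeobox gene of ON bipolar and other cells, fell from 72.0 to 80.1 CPM at 9 months to 59.2 to 68.5 CPM at 17 months (-0.23 ± 0.05). Nyx, encoding nyctalopin of the ON bipolar synapse (0.32 ± 0.07), and Prkca, a protein kinase C gene (0.20 ± 0.05), rose. The transcription factor gene Bhlhe23 did too (0.24 ± 0.07), though its call ended without 17-month library 1 (adjusted p = 0.0564) and with the GC offset (adjusted p = 0.0812). Of 18 amacrine genes 3 rose and 1 fell (1 higher with the GC offset). Slc32a1, the vesicular transporter of GABA and glycine, rose by 0.32 ± 0.06 (0.13 with the GC offset), and 7 of 8 libraries at 17 months exceeded the highest at 9 months. Single libraries decided further calls. Tfap2b, a transcription factor gene (-0.11 ± 0.04), lost its call without any 1 of 7 libraries (adjusted p up to 0.116) and Th, the dopamine synthesis gene (0.30 ± 0.11), without any 1 of 10 (up to 0.126). Of 17 ganglion cell genes only Thy1, a surface glycoprotein gene, was called (0.16 ± 0.06), and its call ended without any 1 of 5 libraries (up to 0.153) and with the GC offset. Isl2, Nefh and Tubb3 had log2 fold changes of 0.13 to 0.22 that did not pass. Of 7 horizontal cell genes 1 was lower, and 0 with the GC offset by edgeR. Among 19 glutamate receptor genes Grik3 and 2 others rose and 3 fell (2 and 2 with the GC offset), namely Gria2 (-0.36 ± 0.09), Gria4 (-0.24 ± 0.07) and Grik2 (-0.25 ± 0.07). The GC offset turned Grik2 to 0.04 and gave Gria2 adjusted p = 0.868.

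Of 19 genes linked to reactive Mueller glia and astrocytes 8 were higher and 0 lower by edgeR (median 0.24), beside 10.2% of all genes called higher, with the GC offset 9 higher and without the libraries of extreme GC trend 7. Stat3 (ENSMUSG00000004040.16, chromosome 11, 100885098 to 100939540), the transcription factor gene of the gp130 cytokine pathway, measured 65.6, 67.3 and 73.2 CPM at 9 months and 73.6, 79.5 and 91.9 CPM at 17 months. Its groups did not overlap (0.24 ± 0.04, adjusted p = 1.96e-05). Osmr, a receptor subunit gene of that pathway, rose by 0.30 ± 0.07, and the sphingosine 1-phosphate receptor gene S1pr3 by 0.30 ± 0.06. Cebpd, a transcription factor gene induced by inflammation, went from a median of 4.05 to 6.55 CPM (0.62 ± 0.14). Edn2, the endothelin gene that photoreceptors express under stress, went from 4.36 to 7.66 CPM (0.64 ± 0.17), and 9-month library 6 held 8.64 CPM. Lcn2 (0.60 ± 0.16), encoding lipocalin 2, and A2m (0.59 ± 0.17), the protease inhibitor alpha-2-macroglobulin, also rose. Library 3 of the 17-month group was the highest for Lcn2 (9.58 CPM) and for the metalloreductase gene Steap4 (8.86 CPM against at most 2.42 CPM in the other 7). Without that library Steap4, at 0.83 ± 0.26 in the full comparison, no longer passed (adjusted p = 0.171). Gfap, the intermediate filament gene most used as a marker of gliosis, was not called (0.24 ± 0.14, adjusted p = 0.226), with medians of 13.5 and 14.2 CPM. Of 19 Mueller glia genes 4 rose and 2 fell (with the GC offset 2 and 1). The glial fate gene Sox9 (0.27 ± 0.06) and the carbonic anhydrase gene Car2 (0.17 ± 0.04) rose. Slc1a3, the glial glutamate transporter gene, fell from 203 to 232 CPM to 186 to 201 CPM (-0.14 ± 0.04). Hes5, a Notch target (0.37 ± 0.10), rose, and with the GC offset its adjusted p was 0.154. None of 7 astrocyte genes was called, with sums of 93.1 to 104 CPM and 87.5 to 107 CPM.

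The called microglial genes were measured at low levels, while called complement genes ranged from Cd55 to Cd46 (9-month medians 0.904 and 67.8 CPM). Of 19 microglia and macrophage genes 5 rose and 0 fell by edgeR (median 0.24), beside 10.2% of all genes called higher. With the GC offset 4 were higher, and without the libraries of extreme GC trend 2 were. C1qa, a chain of the complement initiator C1q, measured 6.29, 7.2 and 9.13 CPM at 9 months and 7.9, 9.64 and 13.9 CPM at 17 months (0.52 ± 0.10, adjusted p = 0.000492). The other chain genes, C1qc (0.49 ± 0.11) and C1qb (0.37 ± 0.12), rose with it, as did Trem2, a lipid-sensing receptor gene (0.62 ± 0.17), and Ctss, the lysosomal protease cathepsin S (0.24 ± 0.08). The calls on C1qb and Ctss each ended without any 1 of 4 libraries (adjusted p up to 0.0735 and 0.104). Summed over the list, microglial genes took 111 to 141 CPM at 9 months, 124 to 175 CPM at 17 months and 92.5 to 109 CPM at 3 months. In the complement list 5 of 20 genes rose and 3 fell (with the GC offset 3 and 2), where 10.2% of all genes were called higher and 11.3% lower. The share of the list called lower was near that of all genes. The C1q chains belong to this list too, and C4b of the classical pathway rose from a median of 23.8 to 38.6 CPM (0.58 ± 0.17; with the GC offset, adjusted p = 0.0643). Cd59a, a regulator of the terminal pathway (0.19 ± 0.07), was called by a margin that any 1 of 11 libraries decided (adjusted p up to 0.195). The membrane regulators Cd46 (-0.40 ± 0.09) and Cd55 (-0.88 ± 0.25) fell, as did Cfp, the alternative pathway stabiliser properdin (-0.30 ± 0.09). Cd46 had adjusted p = 0.251 with the GC offset, and Cd55 lay under 1.1 CPM in every library of both groups. Cfb, complement factor B, measured 6.3 to 9.64 CPM and 6.67 to 8.55 CPM and was not called (0.04 ± 0.08, adjusted p = 0.771).

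Of 15 genes of class I antigen presentation 6 were higher, 0 lower by edgeR, beside 10.2% of all genes called higher, and all 15 estimates were positive (median 0.34; 7 higher with the GC offset, 1 without the libraries of extreme GC trend). H2-K1, a classical class I heavy chain gene, measured 35, 40.5 and 47.2 CPM at 9 months and 44, 52 and 59.5 CPM at 17 months (0.36 ± 0.07, adjusted p = 0.000224). H2-D1 (0.31 ± 0.07) and H2-Q6 (0.66 ± 0.17) rose without overlap of the groups, and Tapbp, encoding the peptide-loading protein tapasin, by 0.31 ± 0.07 (0.21 with the GC offset). Class I genes are close copies of each other, so reads may be split between them. Of 28 interferon response genes 2 rose and 0 fell by edgeR (0 with the GC offset). Ifi27 (0.61 ± 0.19) held 29.3 CPM in 17-month library 5, the highest of the group, and had adjusted p = 0.074 without it. The call on Irf7, an interferon regulatory factor gene (0.35 ± 0.11), ended without any 1 of 3 libraries (adjusted p up to 0.093). Bst2 and Ifitm3, both antiviral effector genes, did not pass. None of 7 class II genes was called by edgeR with or without the GC offset (median 0.01).

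**Figure D3:**
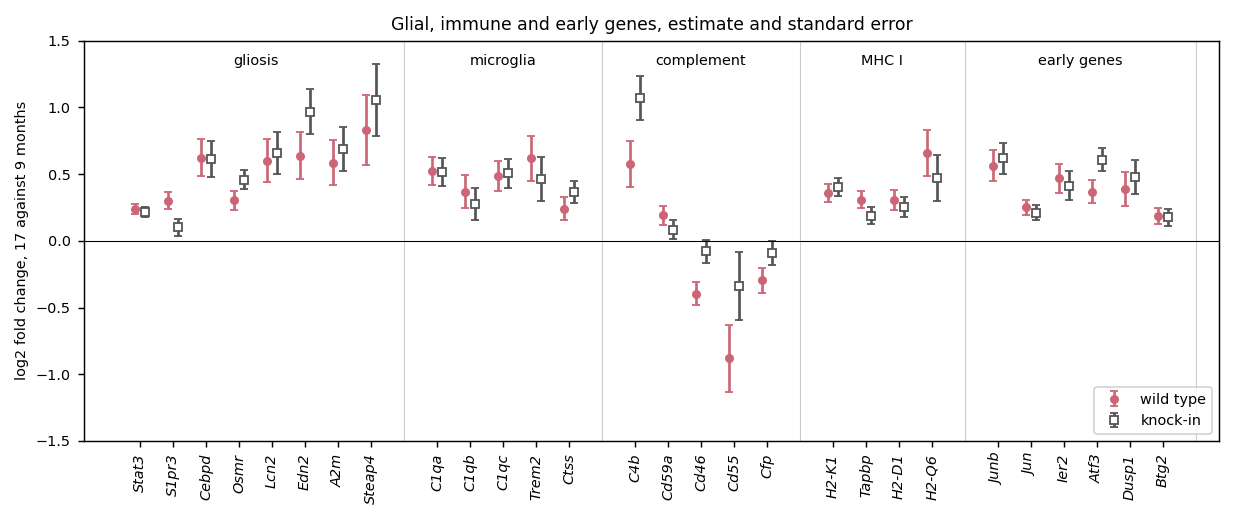
Log2 fold change of 17 against 9 months with its standard error for genes called in wild type from the gliosis, microglia, complement, class I and immediate early lists, in wild-type (filled) and Efemp1ki/ki (open) retinas. Only some called members of the class I and immediate early lists are drawn. Cd46, Cd55 and Cfp lie below 0 in wild type and the other genes drawn above it, the directions in which they were called.

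Immediate early genes, which are transcribed within minutes of light, neuronal activity or tissue handling, had the largest share of members called higher among the lists plotted. Of 20 genes 9 rose and 0 fell by edgeR (median 0.38), where 10.2% of all genes were called higher. With the GC offset 6 rose (5.4% of all genes), and without the libraries of extreme GC trend 4 rose (2.55% of all genes). Junb, a component of the AP-1 transcription factor, measured 7.49, 10.9 and 13.5 CPM at 9 months and 13.5, 15.9 and 19 CPM at 17 months (0.56 ± 0.12, adjusted p = 0.000734). Its groups touched without overlapping. Jun (0.25 ± 0.06), Ier2 (0.47 ± 0.11) and Atf3 (0.37 ± 0.09) rose too. With the GC offset Junb (0.37), Jun (0.17) and Ier2 (0.31) still passed. Between 3 and 9 months 5 members had been called lower and 0 higher by edgeR, where 15.5% and 15.3% of all genes were. The 17-month medians of Junb and Jun, 15.9 and 46.4 CPM, stood beside 3-month medians of 13 and 49.3 CPM. Times of death and dissection are not in the labels, and their part in these values was not tested. The phosphatase gene Dusp1 (0.39 ± 0.13) and the antiproliferative gene Btg2 (0.19 ± 0.06) were chosen to show a promoter feature. Their calls ended without any 1 of 6 and 5 libraries, respectively, and with the GC offset. Of the 9 called genes 7 had a RefSeq promoter (GRCm38.p6). In 2 of these the 250 bases before a start hold the cyclic AMP response element TGACGTCA, a palindrome that reads the same on both strands. It was in 1.55% of 32851 promoters, a count per promoter and not per gene. Members of the list that were not called were not counted separately, so called and other members were not compared. The element is in capitals in the windows of Dusp1 (chr17:26508473-26508722) and Btg2 (chr1:134079156-134079405), both on the minus strand.
Dusp1: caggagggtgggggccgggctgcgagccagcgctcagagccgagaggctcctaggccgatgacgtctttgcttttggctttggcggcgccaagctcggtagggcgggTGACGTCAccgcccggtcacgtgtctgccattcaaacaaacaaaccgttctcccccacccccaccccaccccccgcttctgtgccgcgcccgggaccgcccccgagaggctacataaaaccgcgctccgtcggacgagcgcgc
Btg2: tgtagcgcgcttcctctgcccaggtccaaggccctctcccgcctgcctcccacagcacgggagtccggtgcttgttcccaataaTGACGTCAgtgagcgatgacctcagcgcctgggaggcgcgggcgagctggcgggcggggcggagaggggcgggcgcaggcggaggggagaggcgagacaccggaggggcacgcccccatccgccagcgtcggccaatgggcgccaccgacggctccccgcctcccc

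Of 22 circadian clock genes 5 were lower and 1 higher (with the GC offset 4 and 2), where 11.3% of all genes were called lower, and 11 of the 22 estimates were positive. Nr1d2, a nuclear receptor of the clock's stabilising loop, measured 252, 294 and 336 CPM at 9 months and 162, 231 and 282 CPM at 17 months (-0.36 ± 0.07, adjusted p = 0.000273; -0.24 with the GC offset). Rorb fell as given above. Per2, a core repressor gene, fell by 0.24 ± 0.08, and its call ended without 9-month library 2 (adjusted p = 0.0823) or 17-month library 2 (adjusted p = 0.0688). Drd4, a dopamine receptor gene with a strong daily rhythm in photoreceptors, rose by 0.39 ± 0.10 and lay between 132 and 209 CPM at 17 months, with 86.8 to 172 CPM at 9 months. Collection times are not in the labels.

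Mitochondrially encoded genes were lower in 4 of 9 cases and 0 higher by edgeR (median -0.39), beside 11.3% of all genes called lower, and with the GC offset 0 were called. mt-Co1, a cytochrome oxidase subunit gene, measured 11647, 12807 and 15126 CPM at 9 months and 6629, 11025 and 12744 CPM at 17 months (-0.31 ± 0.09). The lowest values, 6629 and 8047 CPM, were in the 17-month libraries of extreme GC trend. The calls on mt-Nd4 (-0.49 ± 0.17), mt-Cytb (-0.34 ± 0.12) and mt-Nd2 (-0.53 ± 0.20) ended without any 1 of 7, 4 and 9 libraries. Of 32 nuclear genes of oxidative phosphorylation 1 was lower (0 with the GC offset by edgeR, median 0.05). Ribosomal protein genes were called higher in 8 of 37 cases (beside 10.2% of all genes; 5 with the GC offset, 0 without the libraries of extreme GC trend by edgeR), among them Rpl10a (0.33 ± 0.08), Rps23 (0.44 ± 0.10), Rpl37 (0.28 ± 0.08) and Rps16 (0.23 ± 0.06). These have processed copies in the genome, so their reads are uncertain. Fatty acid synthesis genes rose in 6 of 17 cases and fell in 1, beside 10.2% and 11.3% of all genes. With the GC offset 3 rose and 1 fell, beside 5.4% and 7.89% of all genes. The rises were led by Fasn (0.23 ± 0.05), the fatty acid synthase gene, Fads6 (0.21 ± 0.05), a desaturase gene, Acaca (0.18 ± 0.05), acetyl-CoA carboxylase, and Agpat3 (0.15 ± 0.04), an acyltransferase of docosahexaenoic acid lipids. With the GC offset Fads6 had a log2 fold change of 0.13, Fasn adjusted p = 0.0546 and Agpat3 adjusted p = 0.217. In glycolysis 3 of 20 genes rose, where 10.2% of all genes did (1 with the GC offset, where 5.4% did). These were the hexokinase gene Hk1 (0.18 ± 0.04), Pkm (0.17 ± 0.05), encoding pyruvate kinase, and the aldolase gene Aldoa (0.18 ± 0.05). Aldoa lost its call without 17-month library 1 (adjusted p = 0.0529) or 2 (adjusted p = 0.064). None of these 3 passed with the GC offset, and Pfkl (0.14 ± 0.05) passed in neither fit.

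In the lysosome and autophagy list 6 of 25 genes rose and 1 fell, beside 10.2% and 11.3% of all genes (3 and 0 with the GC offset, beside 5.4% and 7.89%). Npc1 (ENSMUSG00000024413.13), the lysosomal cholesterol exporter gene, measured 90.1, 92.9 and 102 CPM at 9 months and 104, 113 and 128 CPM at 17 months. Its groups did not overlap (0.29 ± 0.04, adjusted p = 1.42e-06), and it passed in all 30 alternative settings. The cathepsin gene Ctsb (0.14 ± 0.04) and the autophagosome gene Map1lc3a (0.23 ± 0.07) also rose, and Becn1, encoding the autophagy initiator beclin 1, fell (-0.13 ± 0.04; with the GC offset, adjusted p = 0.211). Ctsb lost its call without 17-month library 1 (adjusted p = 0.0504) or 2 (adjusted p = 0.0507), and Map1lc3a without any 1 of 4 libraries (up to 0.0802) and with the GC offset. The unfolded protein response list had 0 of 26 genes higher by edgeR and 2 lower (0 and 2 with the GC offset), and the antioxidant list 2 of 19 higher and 1 lower (1 and 0). Cholesterol synthesis had 2 of 20 higher and 3 lower (0 and 3) and heat shock 3 of 15 higher and 1 lower (1 and 0), where 21.6% of all genes were called. Of 19 p53 and senescence genes 5 were higher and 3 lower, and with the GC offset 1 and 0.

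**Figure D4:**
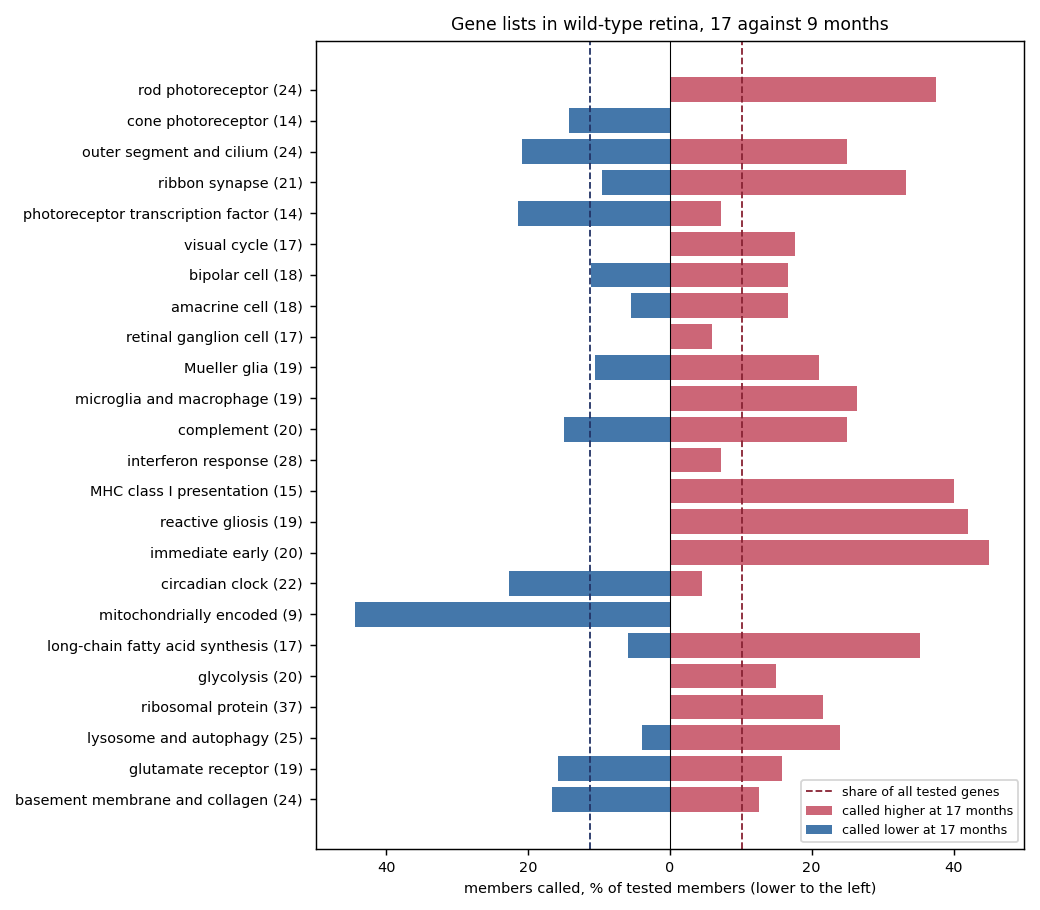
Share of the tested members of each gene list (number tested in brackets) called higher (right) or lower (left) at 17 months in wild-type retina, with dashed lines at 10.2% and 11.3%, the shares of all tested genes. Immediate early, reactive gliosis, class I and rod lists reach furthest to the right and mitochondrially encoded genes furthest to the left.

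Of 24 basement membrane and collagen genes 3 rose and 4 fell, shares near the 10.2% and 11.3% over all genes. With the GC offset 1 rose and 6 fell, where 5.4% of all genes were called higher and 7.89% lower. Without the libraries of extreme GC trend 0 rose and 4 fell by edgeR, where 2.55% and 2.73% of all genes did. Col9a1, a chain of the vitreous collagen type IX, measured 65.5, 74.3 and 95.7 CPM at 9 months and 48.4, 55.6 and 60 CPM at 17 months (-0.48 ± 0.07, adjusted p = 1.5e-05), with a 3-month median of 52.1 CPM. The basement membrane collagen gene Col4a5 fell from a median of 47.8 to 36.5 CPM (-0.42 ± 0.07). Its partner chains went the other way, Col4a4 by 0.28 ± 0.07 and Col4a3 by 0.32 ± 0.10, after rises of 0.67 and 0.90 between 3 and 9 months. Col4a3 had adjusted p = 0.0689 with the GC offset. Efemp1 (chromosome 11, 28853204 to 28926743), the gene that is altered in the other genotype of the series, measured 59.8, 68 and 78.1 CPM at 9 months and 46.6, 59.9 and 62.3 CPM at 17 months in wild type. It was called lower (-0.27 ± 0.09, adjusted p = 0.0241), but not with the GC offset (adjusted p = 0.107), without 9-month library 7 (adjusted p = 0.0616) or without 17-month library 7 (adjusted p = 0.0557).

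The same ages in Efemp1ki/ki retinas gave an independent set of libraries. There 609 of the 17240 genes passed (3.53%), 385 higher (2.23%) and 224 lower (1.3%). Of the 3716 genes called in wild type, 415 were called in the same direction in the knock-in, which is 11.2% of the wild-type calls and 68.1% of the knock-in calls, and 1, Th, was called in the opposite direction (-0.40 ± 0.11). The sign was shared for 91.3% of the wild-type calls, against 69.9% of all genes. The mean GC trend of the knock-in retinas was -0.0252 at 9 and 0.0525 at 17 months. With the GC offset in both genotypes the sign was shared for 2088 of the 2292 wild-type calls (91.1%) and for 66.5% of all genes. Among the 713 genes called under all of the GC settings above, 688 (96.5%) shared the sign, and 200 were also called in the knock-in. Prok1 rose by 0.87 ± 0.10 there, Grik3 by 0.58 ± 0.08, Ptprn by 0.47 ± 0.06 and Npc1 by 0.25 ± 0.04, while Spc25 (-0.50 ± 0.08) and Prdm1 (-0.49 ± 0.09) fell. Knock-in counts were 7 of 19 higher in the gliosis list, 11 of 20 in the immediate early list and 5 of 19 in the microglia list. Rod genes were called higher in 3 of 24 cases, ribosomal protein genes in 0 of 37 by edgeR. A test of the difference between the genotypes' changes passed for 0 genes by edgeR, DESeq2 and limma, with 1485 (8.61%) at an unadjusted p under 0.05, and for 15 with surrogate variables. For Th this test had adjusted p = 0.501. A test of whether the late change differed between retina and eyecup of wild-type mice passed for 0 of 19210 genes by edgeR, with 1910 (9.94%) at an unadjusted p under 0.05, and for 14 by limma voom.

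**Figure D5:**
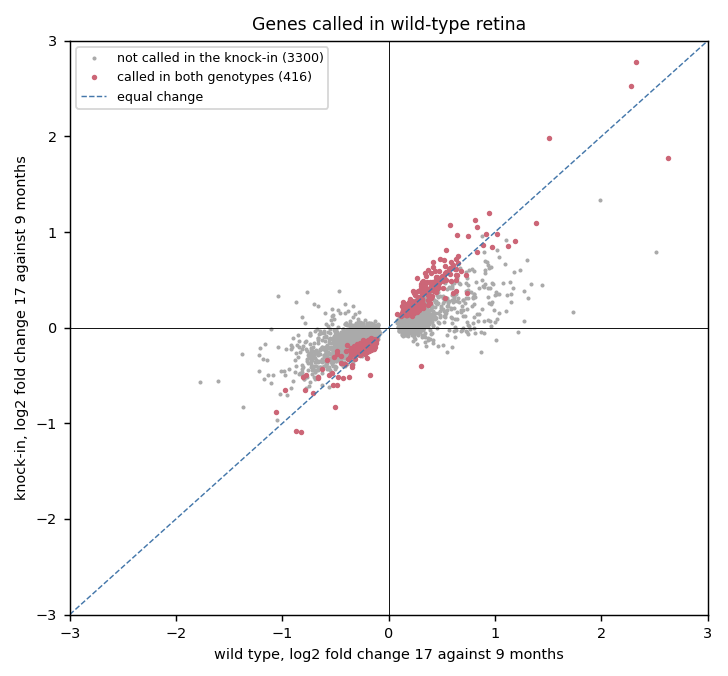
Log2 fold change of 17 against 9 months in wild-type retina (horizontal) and Efemp1ki/ki retina (vertical) for the 3716 genes called in wild type, with the 416 also called in the knock-in marked and 2 genes beyond the axes left out. Most points lie in the lower left and upper right quadrants, and the 416 include 1 gene of opposite direction.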

How the data were processed

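RNA from neural retina was extracted with DNase treatment and made into stranded poly(A) libraries, per the labels' protocols. The deposited count table holds estimated counts per gene on genome build GRCm38.p4, per the submitters' processing notes, while the sources used here name no aligner, counter or strand setting. The TPM values that the authors deposited were treated as a score, because protein-coding genes alone reach the total that all genes together should have. In both tables a single column (1 per file) matched no sample and was not used. Gene positions come from the deposited annotation columns.

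Estimated counts were rounded and fitted with edgeR 4.0.16 (R 4.3.3; TMM scaling, low-count filter, robust quasi-likelihood test) over all 48 retina libraries in 6 groups, 17240 of 30235 genes, with calls at a Benjamini-Hochberg adjusted p under 0.05. The common biological coefficient of variation was 0.0963. The retina and eyecup comparison used all 93 libraries. Alternatives used DESeq2 1.42.0, limma 3.58.1 (voom, and log2(TPM + 1) with a pseudocount of 1), sva 3.50.0, other scaling and filters, covariates, a replicate block, and a GC offset (a spline of 5 degrees of freedom per library). A library counted as extreme or apart beyond 3 scaled median absolute deviations. The fit was tested on simulated data. No library pair in a group was a copy (chi-square per degree of freedom 3.96 to 41.8 over 56 pairs).

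Named genes were Efemp1 and Cfb, the 12 smallest p-values per direction with a log2 change of 0.3 or more in size, the 4 largest folds per direction, the 6 smallest p-values of a test of differences, the 4 smallest p-values of each list described, and all called complement, gliosis and microglia genes. Some genes that this rule names are not reported here. The members and lists were chosen with earlier results of these data known.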

Additional observations from a re-analysis of the deposited data

Results flagged for a closer look

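Chance alone gives about 5% of groups with an outlying library. In 11 of 276 groups of 8 libraries examined for named genes, a share not above that, 1 library lay far from the rest. At 9 months these were Alpk2 at 13.5 CPM in library 6, Clk4 at 87.9 CPM in library 1, Pde6a at 2659.8 CPM in library 4 and H2-Q6 at 1.08 CPM in library 7. At 17 months, library 2, which also had the highest GC trend, was low for Spc25 (28.2 CPM) and high for Acaca (199.5 CPM). Library 5 was high for the interferon genes Ifi27 (29.3 CPM) and Bst2 (9.16 CPM). Library 3 was high for Steap4 (8.86 CPM) and low for Ier2 (11.7 CPM), and library 7 was low for Isl1 (59.2 CPM).

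The change from 9 to 17 months differed from that between 3 and 9 months, by edgeR's test of the difference, for Amy1 (-1.11), Clk4 (-0.97), Clk1 (-1.05), Ccnl1 (-0.63), Pnisr (-0.97) and Taf4b (-1.14) on the log2 scale. All 6 were highest at 9 months, but they were chosen by the p-value of this test, and its negative differences favour such genes. Both changes share the 9-month libraries.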

How the results depend on the processing

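The count of 3716 genes depended on the processing. It was 2292 with the GC offset (931 higher), 2347 with the replicate block and GC offset (959 higher), 2245 with pigment epithelium and lens covariates and GC offset (913 higher), 1607 with only the groups compared (805 higher, 802 lower) and 1127 with surrogate variables (415 higher, 712 lower). Without the libraries of extreme GC trend it was 918 (444 higher, 474 lower). That setting and the covariates with GC offset were chosen after seeing the data. On log2(TPM + 1), 1250 genes were lower. Leaving out 1 library gave 2299 (without 17-month library 2) to 4573 (without 17-month library 3), 2311 without 17-month library 1, with 1059 to 2182 higher and 1224 to 2391 lower. Same-numbered libraries of the age groups had correlations of -0.144 to 0.208 and none correlated best with its own number, so numbers were not taken as pairs, and the replicate block gave 3866 genes.

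The 609 knock-in calls became 323 with the replicate block, 1053 with only the groups compared, 1299 with limma voom, 1462 on log2(TPM + 1), 938 without the libraries standing apart and 1207 without those of extreme GC trend. With surrogate variables 1276 genes passed for 9 against 3 months, 1104 for the late minus the earlier change (3095 without the libraries of extreme GC trend) and 15 for the genotype difference. By limma voom 14 passed for retina against eyecup. Of 3869 values for 129 called named genes under 30 alternatives, 3413 kept direction and call, 451 lost the call and 5 changed sign. The latter were mt-Nd2 (0.07) and Abca4 (-0.0477) on log2(TPM + 1), and Grik2 with the GC offset (0.0402), with block and GC offset (0.0451) and with covariates and GC offset (0.0408). The causes were not tested. In all, 48 called named genes passed in every setting run. Counts near 1 CPM, as for Cd55 and the antisense gene Gm10830, limit precision.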
